A study of Arabidopsis thaliana with 4 samples.

Results

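The genes examined here encode WRKY transcription factors of Arabidopsis thaliana, and the question put to the data was which of them lie at sites that the R2R3 MYB factor MYB67 binds in DNA affinity purification sequencing (DAP-seq). In DAP-seq a tagged factor is made outside the cell, held on beads and mixed with sheared, protein-free genomic DNA, and the DNA kept on the beads is sequenced. The members were 60 WRKY genes of the 27444 nuclear protein-coding genes, taken from a list of locus identifiers and found in the authors' deposited gene table as rows whose gene is a member. The labels give 4 libraries, 2 with Halo-tagged MYB67 and 2 with an empty vector that supplies the Halo tag alone, all incubated with DNA of the Col-0 accession. The tissue label reads root, whereas the protocol takes the DNA from leaf. The proteins came from wheat germ extract. The deposited values describe a single set of 5390 peaks with no value for any one library, so the depth is unknown and no peak has a replicate error. Binding was measured on naked DNA, and neither chromatin nor expression of the WRKY genes was measured.

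WRKY factors are a large plant family named after a conserved stretch of their DNA-binding domain, which holds a zinc finger and recognises the W box, a short element with the core TTGAC. Many are induced by pathogens or salicylic acid and act as activators or repressors in immunity, often upon phosphorylation by mitogen-activated protein kinases. Others act in senescence, phosphate supply, pollen, trichomes and the seed coat, or in the lignified tissue of the stem. The family is divided by structure. Group I carries a pair of WRKY domains, the subgroups of group II carry a single one, and group III carries a single one with another type of zinc finger. MYB67 belongs to another family and recognises another element, rich in A and C. The letters that held at least 60% of the authors' motif matrix read, with N at the position shared between bases:
MYB67 motif core: ACCTANC
This is the only sequence in the deposited files, and it is shown because every site count below is a count of matches to the matrix it comes from. In the matrix the leading A stood at 99.7%, the C after it at 86.3%, the next C at 99.7% and the A after the T at 99.5%, while the T itself stood at 68.9% and the last C at 79.3%.

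A MYB67 peak was assigned to 16 of the 60 WRKY genes (26.7%), against 14.7% of all nuclear protein-coding genes (4030 of 27444). The 16 genes carried 18 peaks, and 44 members had none. Under every stricter way of counting, the share of the members also stood above that of all genes, but by different amounts. With peaks in the upper 50% by fold enrichment, the ratio of a peak's signal to the background that the authors' peak caller modelled, the count was 6 members (10.0%) against 7.55% of all genes. With peaks at a −log10 q of at least 10 it was 8 members (13.3%) against 6.07%. All 16 members kept a peak when a motif site was required (26.7%), against 14.2% of all genes. With a motif site at a stricter q of at most 0.01, 7 members were left (11.7%), against 7.63% of all genes. The stricter counts are drawn from the same 18 peaks, so they are not separate evidence. The members were chosen with earlier results of these data known. Genes are not replicates and no test of these shares was made. The members are too few for small gaps to be read, as between 10.0% and 7.55%.

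**Figure D1:**
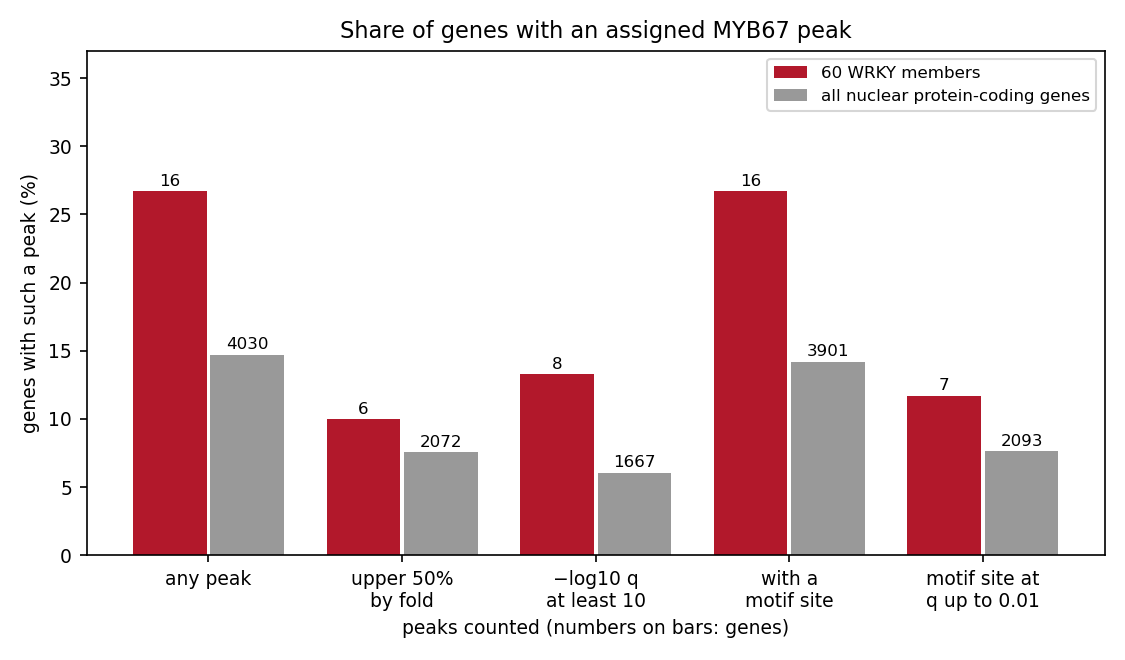
Share of genes with an assigned MYB67 peak in percent (y axis) under 5 ways of counting peaks (x axis), for the 60 WRKY members (red) and all nuclear protein-coding genes (grey), with the number of genes on each bar. The members stand at 26.7% against 14.7% for any peak, and at 10.0% against 7.55% for peaks in the upper 50% by fold.

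Of the 16 members with a peak, 10 had a fold below the median of other genes, and a single one was strong. Each gene was given the value of its strongest peak. The median fold was 3.86 at the 16 members (quartiles 3.53 and 4.99, range 2.66 to 9.60), against 4.48 at the 4014 other genes with a peak (quartiles 3.78 and 5.66, range 1.61 to 21.6). Of the 16 members, 6 lay above the median of the other genes and 10 below it. A few genes decide such a split, and it was not tested. Only 2 of them, WRKY44 and WRKY56, lay above the upper quartile of the other genes, and 6 lay below the lower quartile. The median −log10 q was 8.52 at the members and 8.36 at the other genes, so the median of the members was lower in fold but not in −log10 q. The median peak width was 280.5 bp at the members and 258 bp at the other genes.

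The strongest peak lay at WRKY44, better known as TTG2 (TRANSPARENT TESTA GLABRA 2; AT2G37260), a group I gene needed for trichome development and for tannin and mucilage in the seed coat. Its peak (chromosome 2, 15644191 to 15644847 in TAIR10) had a fold of 9.60 and a −log10 q of 33.5. At 657 bp it was the widest peak of any member. It held 7 motif sites in the deposited list, or 5 with entries of the same q counted once, against 6 on either count at WRKY31. The gene ranked 151 of 4030 by fold, above 96.3% of all genes with a peak. The next member, WRKY56, ranked 854.

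**Figure D2:**
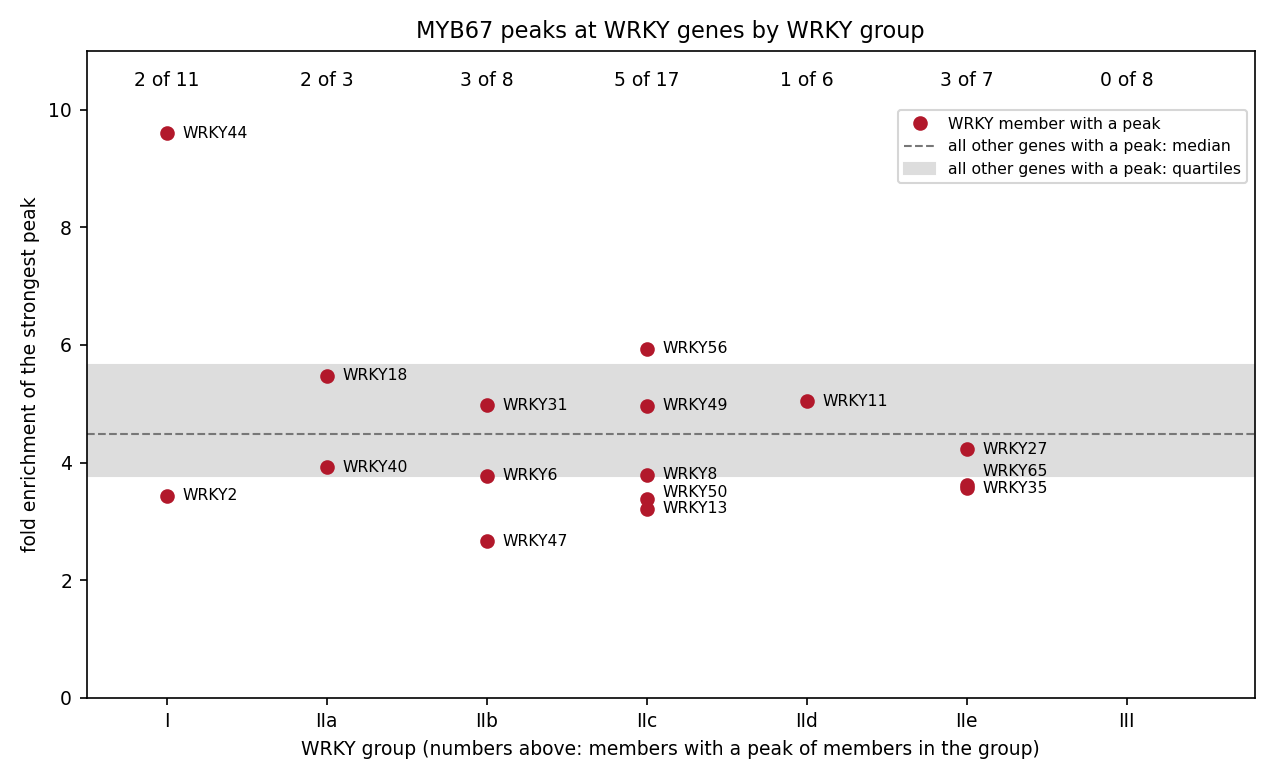
Fold enrichment of the strongest peak (y axis) of each of the 16 WRKY members with a peak, by WRKY group (x axis), with the members that have a peak out of those in the group written above. The grey band and dashed line give the quartiles and median of the other genes with a peak. WRKY44 at 9.60 stands alone, and no member of group III has a point.

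Among the other group I genes, only WRKY2 (AT5G56270; chromosome 5, 22783741 to 22784035), which acts in the asymmetric division of the zygote and in pollen, had a peak, with a fold of 3.44 and 4 sites. Group I thus held both the strongest peak and one of the weakest of the members, at 2 of its 11 genes. That is 18.2% of group I, against 14.7% of all genes. The group counts here and below cover the 60 members only and leave out the other WRKY genes. With 3 to 17 members in a group, a few genes decide each share. The counts are therefore not read as differences between groups or from all genes. No peak was assigned to WRKY1 (listed as ZAP1), WRKY3, WRKY4, WRKY20, WRKY25, WRKY26, WRKY32, WRKY33 or WRKY34. WRKY33 is the regulator of camalexin synthesis and of resistance to necrotrophic fungi, and WRKY34 acts with WRKY2 in pollen.

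In group IIa, whose members WRKY18, WRKY40 and WRKY60 are pathogen-induced, bind one another and modulate defence and abscisic acid responses, 2 of the 3 genes had a peak. WRKY18 (AT4G31800; chromosome 4, 15382236 to 15382503) had a fold of 5.48 and a −log10 q of 16.4, with 2 sites. WRKY40 (AT1G80840; chromosome 1, 30383245 to 30383439) had a fold of 3.92 and a −log10 q of 6.19, with 4 sites in a peak of 195 bp. That is 2.05 sites per 100 bp, but 1 of the 4 entries has the same q as another. The list does not tell whether they are a single site. With them counted once the value was 1.54, against 1.65 at WRKY31. WRKY60 had no assigned peak.

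Group IIb had a peak at 3 of 8 genes. WRKY31 (AT4G22070; chromosome 4, 11691597 to 11691959) had a fold of 4.98 and 6 sites, none of them a repeated entry. WRKY6 (AT1G62300; chromosome 1, 23018149 to 23018398), which acts in senescence and represses the phosphate exporter gene PHO1, had a fold of 3.78 and 2 sites. WRKY47 (AT4G01720; chromosome 4, 747795 to 748015) had the lowest fold of the members, 2.66, below that of nearly all genes with a peak (only 1.27% lay lower), with 3 sites. WRKY9, WRKY36, WRKY42, WRKY61 and WRKY72 had none. WRKY42 is, like WRKY6, a repressor of PHO1.

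Group IIc, the largest, had a peak at 5 of 17 genes. WRKY56 (AT1G64000; chromosome 1, 23747122 to 23747379) had the fold nearest to that of WRKY44, 5.93, from a peak with a single site. WRKY49 (AT5G43290; chromosome 5, 17372002 to 17372277) had a fold of 4.97 and 2 sites. WRKY8 (AT5G46350; chromosome 5, 18802861 to 18803164), which acts in defence and salt tolerance, had a fold of 3.79 and 1 site. WRKY50 (AT5G26170; chromosome 5, 9147675 to 9147869), which acts with WRKY51 in the repression of jasmonate signalling, had a fold of 3.38 and 1 site. WRKY13 (AT4G39410; chromosome 4, 18335232 to 18335470), which promotes lignified tissue in the stem, had a fold of 3.21 and a −log10 q of 3.76, the lowest of the members. WRKY50 and WRKY13 thus lay below the lower quartile of other genes, and WRKY8 just above it. WRKY12, which represses secondary walls in the pith, had no assigned peak. Neither did WRKY75 and WRKY45, which act in phosphate supply and senescence, nor WRKY23, WRKY28, WRKY43, WRKY48, WRKY51, WRKY57, WRKY59, WRKY68 and WRKY71.

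Group IId, whose proteins bind calmodulin, had a peak at 1 of 6 genes. This was WRKY11 (AT4G31550; chromosome 4, 15290491 to 15290815), a negative regulator of basal resistance, with a fold of 5.04, a −log10 q of 17.6 and 3 sites. By −log10 q it came next after WRKY44. WRKY17, which acts together with WRKY11, had no assigned peak, and neither did WRKY7, WRKY15, WRKY21 or WRKY39.

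Group IIe had a peak at 3 of 7 genes, all below the median fold of other genes. WRKY27 (AT5G52830; chromosome 5, 21410209 to 21410495), which affects wilt symptoms caused by Ralstonia, had a fold of 4.23 and 1 site. WRKY65 (AT1G29280; chromosome 1, 10235933 to 10236217) had a fold of 3.63 and 3 sites. WRKY35 (AT2G34830; chromosome 2, 14698363 to 14698696) had a fold of 3.56 but a −log10 q of 10.5, with 4 sites. No peak was assigned to WRKY14, WRKY22, WRKY29 or WRKY69, of which WRKY22 and WRKY29 are known for their place in flagellin signalling.

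None of the 8 group III members had an assigned peak. These were WRKY30, WRKY38, WRKY41, WRKY46, WRKY53, WRKY54, WRKY55 and WRKY70, among them regulators of salicylic acid responses and senescence. At the 14.7% of all genes, a group of this size holds few genes with a peak, and no test was made of the difference between groups. The absence did not extend to all group III genes, since WRKY66, a group III gene outside the members, had a peak with a fold of 5.80.

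Motif sites were present in the strongest peak of all 16 members. Of the 4014 other genes with a peak, 135 (3.36%) had none there. At that share few or no genes without a site are to be found among 16, so the full count is not read as a result. A site is a FIMO match kept by the authors up to a q of 0.05, and the deposited list does not place it within the peak. The median was 2.5 sites at the members and 2 at the other genes, or 0.88 and 0.825 per 100 bp of peak. Of the 16 members, 4 had 1 site, 7 had 2 or 3, and 5 had at least 4 (31.2%), against 15.5% of other genes with at least 4. The 5 were WRKY44, WRKY31, WRKY40, WRKY35 and WRKY2. With repeated entries counted once, WRKY40 dropped out and 4 members were left (25%), against 14.6% of other genes. On either count the gap is one of few genes, and it was not tested. The number of sites did not order the members by fold: the peak with 1 site at WRKY56 had a fold of 5.93, and the peaks with 4 sites at WRKY40, WRKY35 and WRKY2 had folds of 3.92, 3.56 and 3.44.

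**Figure D3:**
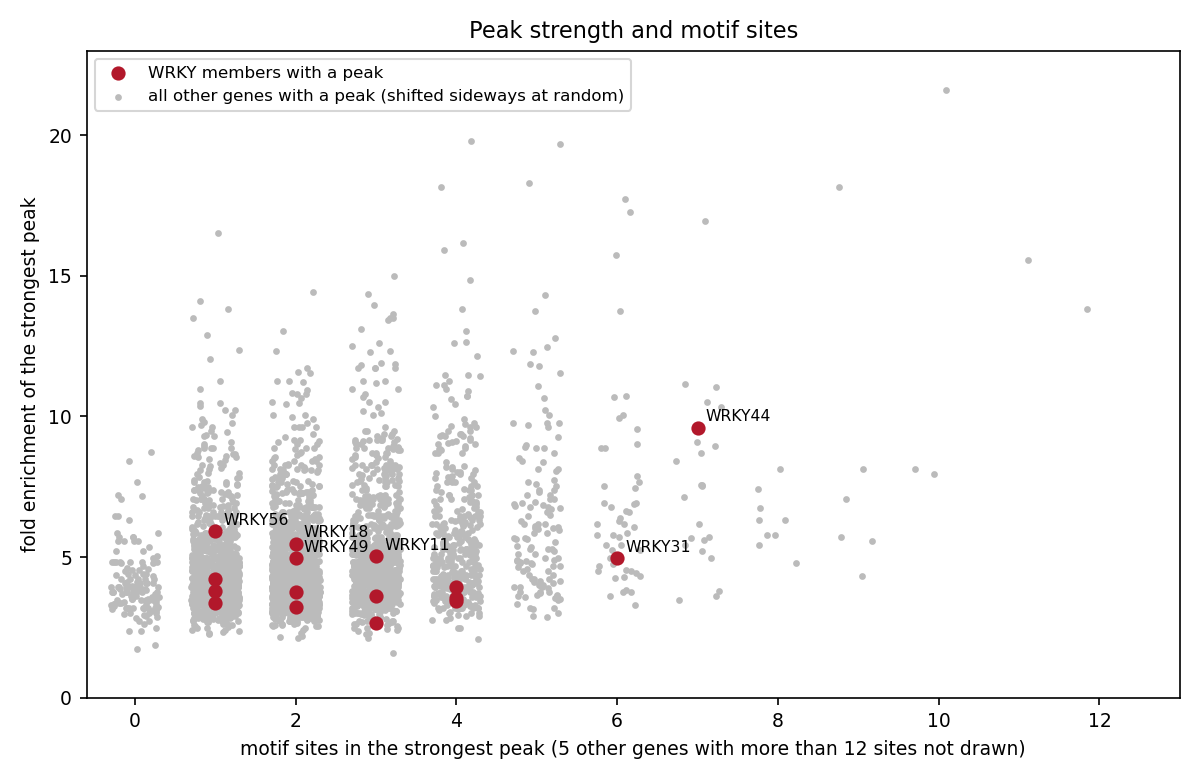
Fold enrichment of the strongest peak (y axis) against the number of motif sites in it (x axis) for the 16 WRKY members with a peak (red) and the other genes with a peak (grey, shifted sideways at random). Repeated entries are included in the counts. WRKY44 lies at 7 sites and a fold of 9.60, while the 3 members with 4 sites lie at folds of 3.44 to 3.92.

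Matches to the motif at a q of at most 0.01 stood at some members and not at the strongest one. The best q there, 0.0117, lay just above that cut and below the median of the members. The strongest peak of the gene held a site at a q of at most 0.01 in 6 of 16 members (37.5%), against 49.7% of all 4030 genes with a peak, a gap of few genes that was not tested. The median of the best site q was 0.0160 at the members and 0.0098 at the other genes with a site. The 6 members were WRKY49 and WRKY47 with a best q of 0.00739 each, WRKY56 with 0.00741, WRKY18 and WRKY27 with 0.00754 each, and WRKY13 with 0.0098. At WRKY44 none of the 7 sites reached 0.01. Their q-values ran from 0.0117 to 0.0344, and 2 of the 7 entries repeat another of the same q. WRKY31 likewise had 6 sites with a best q of 0.016. By that cut, these 2 peaks held several weaker matches and no close one. WRKY50, WRKY8 and WRKY40 had the highest best q-values, at 0.0384, 0.0329 and 0.0286.

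**Figure D4:**
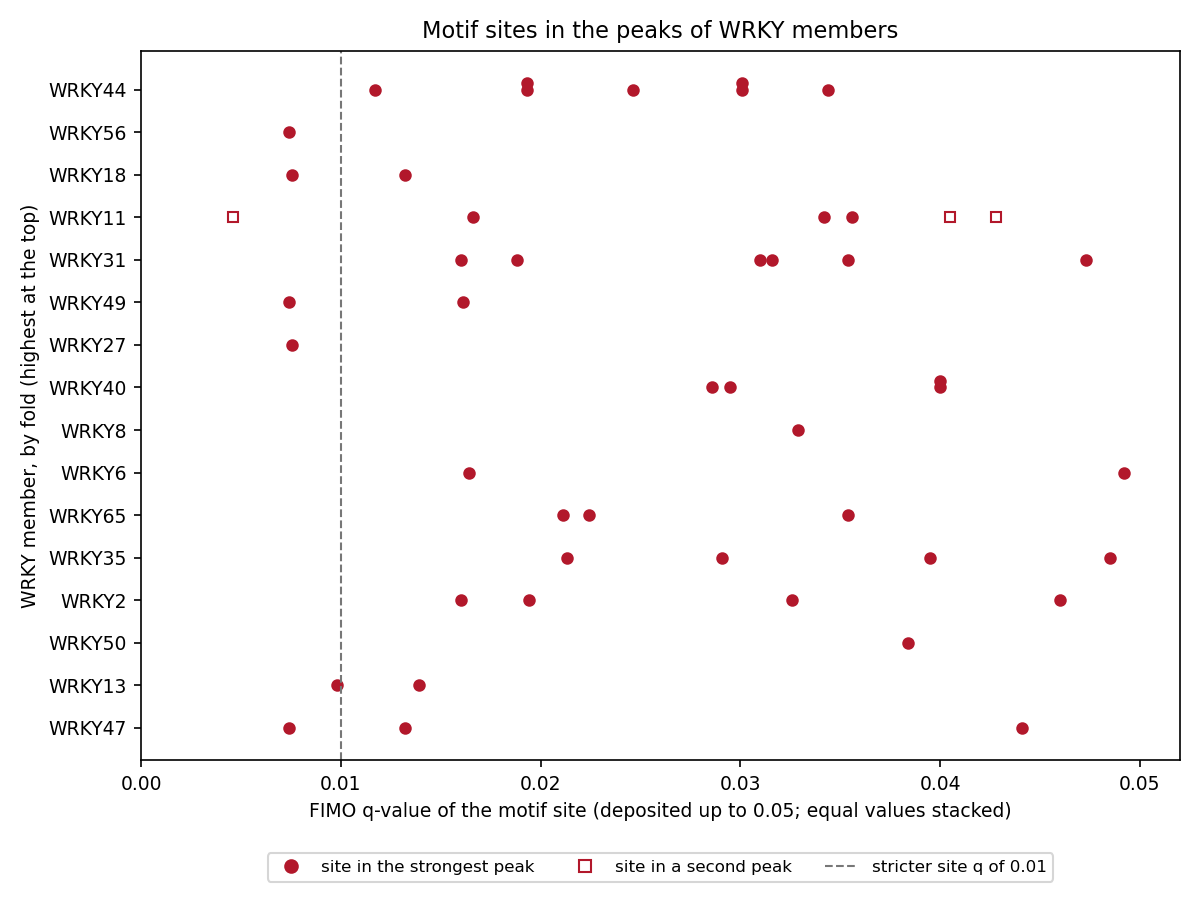
FIMO q-value of every motif site (x axis) in the peaks of the 16 WRKY members (y axis, ordered by fold with the highest at the top). Filled circles are sites in the strongest peak, open squares are sites in another peak of the same gene, and the dashed line marks a q of 0.01. All 7 sites of WRKY44 lie right of the line, and the single site of WRKY56 lies left of it.

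A pair of peaks was assigned to 2 of the 16 members (12.5%), against 9.06% of all genes with a peak. At WRKY11 the other peak (chromosome 4, 15289214 to 15289427) lay 1063 bp from the stronger one and was weaker, with a fold of 3.13 against 5.04. It nevertheless held the closest motif match at any member, with a q of 0.00462, whereas the best site of the stronger peak had a q of 0.0166. At WRKY49 the other peak (chromosome 5, 17374223 to 17374511) lay 1945 bp away, with a fold of 4.56 against 4.97. It was the only one of the 18 peaks without a motif site, and its −log10 q of 14.1 was higher than the 11.8 of the peak with the higher fold. At both genes the peak with the closer motif match was therefore not the one with the higher −log10 q.

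Peaks were also counted by sets of close relatives. The 60 members include 47 that fall into 21 sets of close relatives, drawn up from general knowledge of the family and not computed from sequence. WRKY genes outside the members were left out of the sets. Of the 21 sets 16 are pairs. In 7 pairs a single gene had one, namely WRKY2 but not WRKY34, WRKY13 but not WRKY12, WRKY50 but not WRKY51, WRKY56 but not WRKY43, WRKY11 but not WRKY17, WRKY35 but not WRKY14, and WRKY65 but not WRKY69. In the other 9 pairs neither had one, and in no pair did both. With 26.7% of the members and 14.7% of all genes having a peak, few such pairs are to be found among 16, so the 0 is not read as a result. Among the 5 sets of 3 genes, WRKY18 and WRKY40 each had a peak and WRKY60 did not, and WRKY6 and WRKY31 each had one and WRKY42 did not. WRKY8 and WRKY27 were each the only one of their set, and the set of WRKY30, WRKY41 and WRKY53 had none. No test was made of how often relatives are called together.

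Peaks at adjacent genes were counted because a gene table that gives each peak at most 1 gene can place a peak beside a member under its neighbour's name. Of the 44 members without a peak, 12 (27.3%) had an adjacent gene with one, close to the 26.4% of all genes without a peak. The 12 were WRKY4, WRKY9, WRKY21, WRKY28, WRKY29, WRKY30, WRKY45, WRKY46, WRKY51, WRKY57, WRKY70 and WRKY75. Adjacent means next in gene order. The distance from these neighbours' peaks to the 12 members was not computed, so none is shown to lie beside a member. The neighbour of WRKY28, AT4G18180, had the highest fold among these, 7.89. The neighbour of WRKY46 is CPC (AT2G46410), a MYB-related gene of root hair patterning, with a fold of 5.12. LIP1 (AT5G64813), next to WRKY51, had a fold of 5.42. Of the 16 members with a peak, 7 (43.8%) also had an adjacent gene with one, against 31.2% of all genes with a peak. That gap is one of few genes and was not tested. The neighbour of WRKY65, AT1G29270, had a fold of 11.7, far above the 3.63 of WRKY65 itself, and its peak lay 5803 bp from that of WRKY65.

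By chromosome, the members with a peak were 4 of 11 members on chromosome 1, 2 of 17 on chromosome 2, 0 of 5 on chromosome 3, 5 of 15 on chromosome 4 and 5 of 12 on chromosome 5. The share of all genes with a peak lay between 13.9% on chromosome 3 and 15.1% on chromosome 5. The counts of members are small, and no difference between chromosomes was tested. WRKY44 and WRKY35 were the members with a peak on chromosome 2, which carries the most members.

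Genes known to work with WRKY factors were set beside the family. Of 24 listed partner and target genes 5 had a peak, against 14.7% of all genes. Among the 6 that belong with WRKY44 to the network of epidermal cell fate and seed coat tannin, 4 had one. The genes were chosen with earlier results of these data known, so this count is not read as a result. AHA10 (AT1G17260; chromosome 1, 5903587 to 5903918), the proton pump of seed coat vacuoles, had a fold of 6.52. TT2 (AT5G35550; chromosome 5, 13727858 to 13728095), the MYB activator of tannin genes, had a fold of 5.11 and an additional, weaker peak. GL2 (AT1G79840; chromosome 1, 30036521 to 30036750), the homeodomain regulator of trichomes and root hairs, had a fold of 4.38. TTG1 (AT5G24520; chromosome 5, 8374479 to 8374731), the WD-repeat protein upstream of TTG2, had a fold of 4.03. TT8 and the tannin precursor transporter gene TT12 had no assigned peak. All 4 folds were lower than the 9.60 of WRKY44. As WRKY44 lay above 96.3% of all genes with a peak, this is not read as a result.

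Of the 15 listed partners and targets in defence, 1 had a peak. At the 14.7% of all genes, few are to be found among 15, so this count is not read as a result. The gene with a peak was MKK4 (AT1G51660; chromosome 1, 19154594 to 19154860), a kinase of the immune cascade that leads to phosphorylation of WRKY33. Its fold was 4.83, with 2 sites. No peak was assigned to the kinase genes MPK3, MPK4, MPK6, MEKK1 and MKK5, or to SIB1, SIB2 and MKS1, whose products bind WRKY proteins. The same held for NPR1 and ICS1 of the salicylic acid pathway, the camalexin genes PAD3 and CYP71A13, and the ethylene synthesis genes ACS2 and ACS6. PHO1 and PHT1;1, phosphate transport genes regulated by WRKY factors, had none, and neither did NST2, the secondary wall regulator that WRKY12 represses. The list of partners is short and was drawn up from general knowledge, with earlier results of these data known. Its groups were not tested against each other.

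WRKY genes outside the members were few. The reference table names 72 WRKY genes in all, and 3 of the 12 outside the members had a peak, which brings the family to 19 of 72. WRKY66 (AT1G80590; chromosome 1, 30297398 to 30297661) had a fold of 5.80 and 2 sites. WRKY19 (AT4G12020; chromosome 4, 7207090 to 7207323), which encodes a WRKY domain joined to resistance protein and kinase domains, had a fold of 5.12 and 4 sites. WRKY74 (AT5G28650; chromosome 5, 10680206 to 10680422) had a fold of 4.53 and no motif site. All 3 were stronger than the median member. With them included the median fold of the family was 4.23, nearer to the 4.48 of other genes.

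Other families of transcription factors, taken by gene symbol, gave values of similar size. A peak was assigned to 22 of 115 R2R3 MYB genes and to 14 of 81 NAC genes. Both shares lay above the 14.7% of all genes and below the 26.7% of the WRKY members. The 22 R2R3 MYB genes had a median fold of 4.99 and a median of 2 sites, and the 14 NAC genes had 4.38 and 2. The median fold of the 16 WRKY members, 3.86, lay below both, within the quartiles of each family (3.85 to 6.33 for the MYB genes and 3.71 to 5.34 for the NAC genes). These differences were not tested.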

How the data were processed

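The libraries, 2 with MYB67 and 2 with empty vector, were deposited as 4 files that describe 1 peak set. Per the submitters' processing notes the build was TAIR10, and the tools included MACS3 3.0.0a7, STAR 2.7.10a, HOMER, bedtools, Trimmomatic 0.39, FastQC and Picard 2.27.1. The pooling of libraries, the use of the empty vector and the join of peaks to genes are not given in the sources used here. Peaks of the authors' deposited list each have a −log10 q, a score and a fold (a ratio of signal to modelled background). The table of genes that the authors deposited repeats the fold with the peak q-value and names at most 1 gene per peak. The deposited motif list gives a FIMO q-value per site, and the deposited motif matrix gives the fraction of each base. A fold depends on the background estimate, and wider peaks hold more sequence for a site.

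A gene took the values of its assigned peak with the highest fold, and sites were the motif entries with that peak's coordinates, repeats included. A repeat is an entry with the same peak and q as another, and it may be a separate site. Positions are printed from 1. Names, the set of nuclear protein-coding genes and gene order came from a RefSeq table of TAIR10.1, in which all 60 members were found with their WRKY number. Its coordinates were not set against those of TAIR10, and no peak was placed in a promoter, exon or intron. No genome or promoter sequence was used. Counting was done in Python 3.11.15 with pandas 2.3.3 and checked on simulated data. The members, WRKY groups, sets of relatives and partner genes were chosen from general knowledge, with earlier results of these data known. Every member with a peak is named with its values, every other member by name alone, listed partners with a peak by fold, and WRKY genes outside the members where they have a peak. Neighbours were named after their values were seen. No library has values of its own, so no test was made. Alternatives were peaks with a motif site, the upper 50% of peaks by fold, peaks from a −log10 q of 10 upwards, sites at a q of at most 0.01, all peaks of a gene, repeated motif entries counted once, and the whole WRKY family.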

Additional observations from a re-analysis of the deposited data

How the results depend on the processing

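The count of 16 members with a peak depended on which peaks were counted. It was 6 with peaks in the upper 50% by fold, 8 with a −log10 q of at least 10 and 7 with a motif site at a q of at most 0.01. It stayed at 16 when any motif site was required and was 19 in the whole family of 72. The median fold of 3.86 did not move with the mean over all peaks of a gene or with peaks that hold a site. It was 5.01 from a −log10 q of 10 upwards (8 members, against 6.02 at other genes so filtered) and 4.23 in the whole family. It stayed below that of other genes in these settings, a difference that was not tested. The median of 2.5 sites was 0 with sites at a q of at most 0.01, 2 in the whole family, and 2.5 with repeated entries counted once or with all peaks of a gene. Counting repeats once changed 2 of the 16 members, WRKY44 (5 sites in place of 7) and WRKY40 (3 in place of 4), so that WRKY31 with 6 sites came first by number and by density. No paired analysis was possible because no deposited value belongs to a single library, and for the same reason no library could be left out. Depth is unknown, so a member without a peak was not detected at this depth and threshold, which does not show that MYB67 does not bind there.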
